A study of Homo sapiens with 40 samples.

Results

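Histone genes, replication-dependent and variant, were followed in 10 lines of human non-small cell lung cancer treated with GSK3368712 or with its vehicle dimethyl sulfoxide (DMSO). The compound inhibits type I protein arginine methyltransferases. The members were taken by symbol: every gene whose symbol starts with HIST1H, HIST2H, HIST3H or HIST4H, together with H1F0, H1FX, H2AFX, H2AFZ, H2AFV, H2AFY, H2AFY2, H2AFJ, H3F3A and H3F3B, without symbols ending in PS and digits. The rule matched 85 symbols, and 61 of these had values in at least 1 line, out of 19280 genes with values. Of the 61, 46 were replication-dependent genes (1 for H1, 14 for H2A, 12 for H2B, 10 for H3 and 9 for H4), 10 were variant or replacement genes and 5 were annotated as pseudogenes or non-coding, HIST2H2BA, HIST2H2BB, HIST2H2BD, HIST2H3DP1 and HIST3H2BA. Values in at least 5 lines were available for 31 members and values in all 10 lines for 18.

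The row labels mark NCIH1563, NCIH1975, NCIH522 and PC9 as LUAD, read as lung adenocarcinoma (4 lines), and SW900, SKMES1, NCIH520, NCIH226, LK2 and EBC1 as LUSC, read as squamous cell carcinoma of the lung (6 lines). Each line had 2 libraries with GSK3368712 and 2 with DMSO, 40 in all, and the sample titles end in D5, which the labels do not explain, while the row labels also carry the number 2000 without a unit. No genetic change is labelled in either arm, so within a line the arms differ by compound against vehicle, and each line is an established culture rather than a tumour. Nothing states that paired libraries within an arm were grown separately, so the p-values within a line may measure only technical spread. All values below are log2 fold changes, standard errors, adjusted p-values and mean normalized counts of the authors' deposited table, or were computed from them. A gene is called higher or lower in a line here when its deposited adjusted p was under 0.05, whatever the size of its fold change. The authors' own mark of significance was not used. It leaves out some of these calls, such as H1F0 in LK2 (log2 fold change 0.315, authors' adjusted p = 0.00176). The sign was inferred: the row labels name the compound ahead of the vehicle, so a positive fold change is taken to mean more RNA with GSK3368712.

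Nucleosomes wrap DNA around an octamer of the core histones H2A, H2B, H3 and H4, and linker histone H1 binds where the DNA enters and leaves. The replication-dependent genes sit in clusters, are transcribed mainly in S phase, lack introns in their classical form, and give messages that end in a conserved stem-loop bound by SLBP instead of a poly(A) tail. Variant genes are spread over the genome, are mostly transcribed through the cell cycle, and mostly give ordinary polyadenylated messages. Their proteins replace the core histones at particular sites. PRMT1, the main enzyme of the inhibited class, places asymmetric dimethylarginine on many proteins, among them an arginine in the tail of histone H4. The libraries were made with a kit for messenger RNA, which captures poly(A) tails, so the values of replication-dependent genes describe the tailed part of their RNA. How large that part was in each arm was not measured.

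Before the results, the labelled cell types were set against their markers. KRT7, KRT8, KRT18 and KRT19, keratins of simple epithelia, had values in all 10 lines, EPCAM in 8 and CDH1 in 7, and the blood markers PTPRC and CD3E had none in any line. COL1A1 had values in all 10 lines, CD68 in 8 and PECAM1 in 1. The subtype markers did not separate the labels: of the squamous markers, SOX2 had values in 1 of 4 LUAD and 4 of 6 LUSC lines, TP63 in 2 and 2, KRT5 in 1 and 2 and KRT6A in 1 and 1. Of the markers of lung glandular cells, NKX2-1 had values in 1 of 4 LUAD and 3 of 6 LUSC lines, NAPSA in 1 and 2 and SFTPB in 0 and 1. LUAD and LUSC are therefore used below as the row labels give them. Between 12721 and 14565 genes and between 24 and 43 histone members had values per line, and the labels state a depth of 100000000 paired-end reads per library, which could not be checked in the authors' deposited table because it gives no values per library.

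The stem-loop is the 3′ end that replication-dependent messages are known for, so it is shown for some replication-dependent members that are named below and have one annotated. The sequences come from GENCODE 29 transcripts (GRCh38), written as DNA, with the 16 bases matching GGCNCTTNTCAGNGCC on the transcript strand in capitals and 5 bases on either side in lower case.
HIST3H2A: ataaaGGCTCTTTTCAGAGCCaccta
HIST1H2AC: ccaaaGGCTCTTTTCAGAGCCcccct
HIST2H2BE: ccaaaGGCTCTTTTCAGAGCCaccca
HIST1H3H: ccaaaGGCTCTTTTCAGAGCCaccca
HIST1H3E: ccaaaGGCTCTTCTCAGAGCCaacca
HIST1H4H: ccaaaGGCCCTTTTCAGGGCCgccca
The stem arms are GGCTCT and AGAGCC in all of these except HIST1H4H, where they are GGCCCT and AGGGCC. An annotated transcript of HIST3H2A ran on for 390 bases after the loop, one of HIST1H2AC for 1128 bases, one of HIST2H2BE for 1729 bases, one of HIST1H3H for 769 bases, one of HIST1H3E for 1862 bases and one of HIST1H4H for 1655 bases. Of the 46 replication-dependent members, 20 had the stem-loop in an annotated transcript, 14 had a transcript running at least 100 bases past it, 12 had a spliced transcript, and 20 had one or the other. No annotated transcript of the 10 variants matched the stem-loop pattern, which does not exclude a stem-loop in other forms of their messages. All 10 had a poly(A) signal in the last 50 bases of a transcript. So did 20 of the 46 replication-dependent members, among them all 6 shown here. HIST1H2BJ and HIST1H2BD had the poly(A) signal and no annotated stem-loop. The annotation of HIST1H1C holds a single transcript of 642 bases in which no stem-loop was found. Other members had still shorter annotation, 381 bases for HIST1H2BK and 312 bases for HIST1H4D. An annotated transcript may stop before the end of the message, so a missing match does not show that a gene lacks the stem-loop.

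The promoters of some members named below, without H2AFZ and H1FX, are shown as RefSeq windows of GRCh38.p14. They run from 250 bases before to 50 bases after the gene start, on the gene's strand. Capitals mark the box CCAAT, the core element TATAAA, the octamer ATTTGCAT, the H1 box AAACACA and the E2F form TTTCGCGC on either strand, and a longer run of capitals is an overlap of motifs.
HIST3H2A, chr1:228457824-228458123, minus strand: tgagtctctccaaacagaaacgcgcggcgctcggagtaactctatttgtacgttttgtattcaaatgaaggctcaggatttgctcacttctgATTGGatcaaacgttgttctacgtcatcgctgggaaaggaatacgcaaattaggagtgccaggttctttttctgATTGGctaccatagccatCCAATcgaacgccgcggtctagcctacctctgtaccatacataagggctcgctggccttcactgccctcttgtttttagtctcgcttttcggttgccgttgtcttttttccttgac
HIST1H2AC, chr6:26123922-26124221, plus strand: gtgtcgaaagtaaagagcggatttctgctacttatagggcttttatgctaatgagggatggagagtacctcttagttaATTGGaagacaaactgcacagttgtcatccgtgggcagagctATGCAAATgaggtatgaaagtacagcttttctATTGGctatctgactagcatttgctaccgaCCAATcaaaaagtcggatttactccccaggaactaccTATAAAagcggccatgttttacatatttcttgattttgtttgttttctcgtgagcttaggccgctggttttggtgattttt
HIST1H2BD, chr6:26157872-26158171, plus strand: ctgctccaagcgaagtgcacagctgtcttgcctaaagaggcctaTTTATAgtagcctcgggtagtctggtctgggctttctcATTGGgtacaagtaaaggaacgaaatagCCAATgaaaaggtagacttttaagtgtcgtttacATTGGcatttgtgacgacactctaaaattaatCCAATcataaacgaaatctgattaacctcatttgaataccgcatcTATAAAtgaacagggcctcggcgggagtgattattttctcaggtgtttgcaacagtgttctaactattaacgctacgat
HIST1H2BJ, chr6:27132746-27133045, minus strand: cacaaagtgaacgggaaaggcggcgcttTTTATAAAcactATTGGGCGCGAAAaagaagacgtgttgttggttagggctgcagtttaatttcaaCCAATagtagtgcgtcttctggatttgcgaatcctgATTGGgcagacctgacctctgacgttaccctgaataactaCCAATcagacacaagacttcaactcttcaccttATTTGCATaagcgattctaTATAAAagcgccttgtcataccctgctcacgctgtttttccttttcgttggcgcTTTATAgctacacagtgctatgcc
H2AFJ, chr12:14774155-14774454, plus strand: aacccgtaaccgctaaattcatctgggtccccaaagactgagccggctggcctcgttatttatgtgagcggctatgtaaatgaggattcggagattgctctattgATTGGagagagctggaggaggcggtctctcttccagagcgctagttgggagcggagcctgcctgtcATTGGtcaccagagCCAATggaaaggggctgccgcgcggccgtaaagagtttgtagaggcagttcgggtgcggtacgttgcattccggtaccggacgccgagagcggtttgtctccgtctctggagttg
RefSeq promoters were matched for 50 of the 61 members, 41 of them replication-dependent and 9 variant. The octamer was present in 14 of the 41 replication-dependent and 1 of the 9 variant windows, against 1.77% of all 35116 promoters. It was found in 8 of 13 H2A and 6 of 10 H2B windows and in none of the 9 H3 and 8 H4 windows. CCAAT was present in 34 of the 41 and 7 of the 9 windows, against 34.6% of all promoters, and TATAAA in 26 and 4, against 11.5%. TTTCGCGC, a form of the E2F site, was present in 11 of the 41 and none of the 9, against 0.515%. AAACACA, the H1 box, was present in 3 of the 41 and none of the 9, against 5.64%. Windows of neighbours on opposite strands can overlap, so the same site can count in more than 1 window. Those of HIST1H2AG and HIST1H2BJ hold the same octamer and the same TTTCGCGC site. Those of HIST2H2AC and HIST2H2BE hold the same octamer. The HIST1H2AC window also covers the start of HIST1H2BC, which is transcribed in the opposite direction from a start 219 bases away.

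Variant genes carried most of the histone signal. Per kilobase of the longest annotated transcript and per 1000000 listed counts, the mean level over lines ran between 18.5 and 180 in the variants, with a median of 52.2, and between 0.412 and 58.0 in the replication-dependent members, with a median of 1.67. H3F3A, H3F3B (which both encode H3.3) and H2AFZ (H2A.Z) had the highest levels per kilobase, at 180, 166 and 161. Among the replication-dependent members HIST1H2BK at 58.0 and HIST1H1C, which encodes a linker histone, at 54.3 came first on this scale, followed by HIST3H2A at 23.4 and HIST1H2BD at 14.9. The level of HIST3H2A rested on NCIH522 and was 6.52 without that line. This order also depends on annotated length, since the longest transcript was 381 bases for HIST1H2BK and 642 for HIST1H1C but 2194 for HIST2H2BE. HIST1H2BK also shares 86.3% of its 31-base stretches with other genes. In the authors' deposited table the variants took between 0.122% and 0.343% of the mean normalized counts of a line and the replication-dependent members between 0.0037% and 0.0380%. The share of the replication-dependent members was 0.0185% to 0.0380% in the 4 LUAD lines and 0.0037% to 0.0314% in the 6 LUSC lines, where EBC1 was the one line above 0.0107%.

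**Figure D1:**
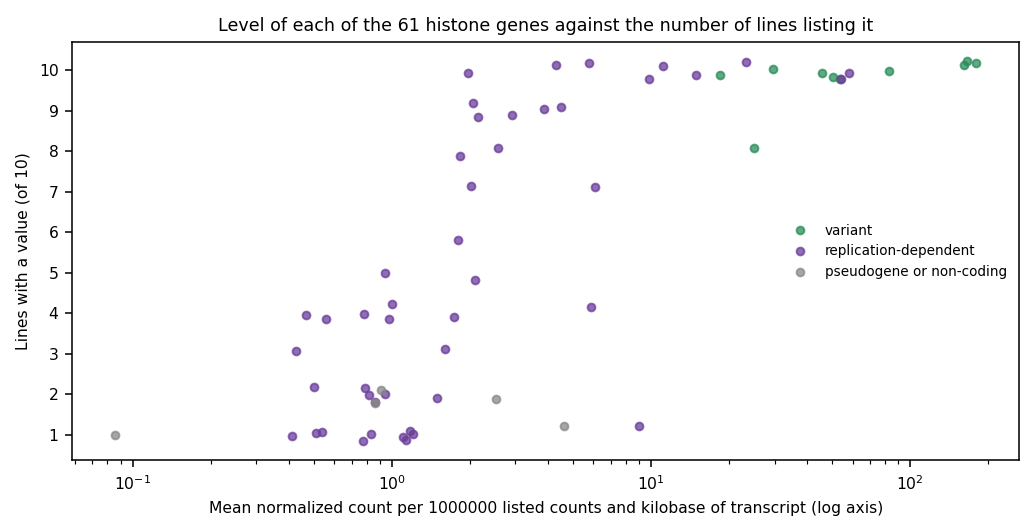
Mean level of each of the 61 histone genes (x, log axis; mean normalized count per 1000000 listed counts and kilobase of transcript, over the lines with a value) against the number of lines that list it (y). Variants sit between 18.5 and 180 and were listed in 8 to 10 lines, whereas replication-dependent genes reach down to 0.412 and had a median of 4 lines.

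Listing depended on level, because the authors dropped a gene from a comparison when its FPKM was 1 or lower. The 46 replication-dependent members could have given 460 values over 10 lines and gave 237, while the 10 variants gave 98 of 100. Counts of replication-dependent members therefore describe those listed in a line and not the whole family. Read assignment was not examined. It may be uncertain for 14 of the 46, which share at least 50% of their 31-base stretches with other genes. HIST2H2AA3 shares 100% and HIST2H4A 98.6%, and HIST1H2BK shares 86.3%. The 5 pseudogenes gave 8 values between −1.22 and 1.02 in the authors' deposited table, and none of the 8 passed its adjusted p of 0.05.

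Across the 10 lines, 5 members passed the test. HIST3H2A, a replication-dependent H2A gene outside the main cluster, rose, and the H2A variants H2AFJ and H2AFZ, the linker variant H1FX and the replication-dependent H2B gene HIST1H2BJ fell. The test was limma on 1 fold change per line over the 13641 genes with values in at least 5 lines, with Benjamini-Hochberg adjustment over all of them. It called 1 of the 31 members higher, against 9.31% of all genes, and 4 lower, against 10.2% of all genes, which is 3.23% and 12.9% of the members and near the gene-wide share for lower calls. At an unadjusted p of 0.05 there were 10 members. The median of the mean fold changes was 0.08 over the 21 replication-dependent members tested, −0.15 over the 10 variants and 0.01 over all genes tested.

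HIST3H2A (chr1:228456979-228457873, minus strand, 1 exon, GRCh38) was the one replication-dependent gene called higher across the 10 lines. In the authors' deposited table its log2 fold change was 0.67 in NCIH1563, 0.18 in NCIH1975, 0.34 in NCIH522 and 0.35 in PC9, all LUAD. In the LUSC lines the authors' deposited table gave a lowest value of 0.61 in NCIH520, a median of 1.35 and a highest value of 1.70 in NCIH226. All 10 lines were above 0, and only NCIH1563 among the LUAD lines exceeded the lowest LUSC value. The mean was 0.93 ± 0.56 (SD, n = 10 lines; limma adjusted p = 0.00261), and 6 lines passed the authors' adjusted p. It was not among the top 75% of genes by expression, so that alternative could not test it. Its mean normalized count was 41.3 in SKMES1 and 14736 in NCIH522, the ends of its range in the authors' deposited table.

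H2AFJ (chr12:14774383-14778002, plus strand, 2 exons) encodes H2A.J, a variant described as accumulating in senescent human fibroblasts. In the authors' deposited table its log2 fold change was −0.77 in NCIH1563, −1.48 in NCIH1975, −1.13 in NCIH522 and −0.99 in PC9. In the LUSC lines the authors' deposited table gave a lowest value of −0.87 in SKMES1, a median of −0.55 and a highest value of −0.04 in EBC1. Every line was below 0 and 8 of 10 passed the authors' adjusted p, with EBC1 and NCIH226 as the 2 that did not. The mean was −0.74 ± 0.42 (SD, n = 10 lines; limma adjusted p = 0.0024).

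H2AFZ (chr4:99948086-99950388, minus strand) encodes H2A.Z, which marks the nucleosomes flanking active promoters, and was lower by a small amount. The authors' deposited table gave −0.18 in NCIH1563, −0.57 in NCIH1975, −0.18 in NCIH522 and −0.16 in PC9. In the LUSC lines the lowest value of the authors' deposited table was −0.59 in EBC1, the median −0.26 and the highest −0.15 in SW900. All 10 lines were below 0, but the 5 that passed the authors' adjusted p were all LUSC lines, where the standard errors were smaller. The mean was −0.29 ± 0.16 (SD, n = 10 lines; limma adjusted p = 0.0118). H2AFV, the second gene for H2A.Z, averaged −0.13 ± 0.19 (SD, n = 10 lines) and did not pass (limma adjusted p = 0.215).

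H1FX (chr3:129314771-129316277, minus strand, 1 exon) encodes a replication-independent linker histone. In the authors' deposited table its log2 fold change was 0.10 in NCIH1563, −1.83 in NCIH1975, −0.15 in NCIH522 and −1.18 in PC9. In the LUSC lines the authors' deposited table gave −1.83 in SW900 as the lowest value (standard error 0.093, adjusted p = 9.34e-84), −0.69 as the median and −0.19 in NCIH226 as the highest. Of 10 lines, 9 were below 0 and 7 passed the authors' adjusted p. The mean was −0.77 ± 0.66 (SD, n = 10 lines; limma adjusted p = 0.0144). H1F0, the linker variant of differentiated and resting cells, had no common direction: the authors' deposited table gave −1.29 in NCIH1975 and −0.63 in SW900, both past its adjusted p, against 0.32 in LK2, also past it.

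HIST1H2BJ (chr6:27125897-27132750, minus strand) was a low gene, with mean normalized counts of 32.1 to 422 per line in the authors' deposited table. Its log2 fold change in the authors' deposited table was −1.99 in NCIH1563, −2.43 in NCIH1975, −1.83 in NCIH522 and −0.60 in PC9. In the LUSC lines the authors' deposited table gave −1.44 in EBC1 as the lowest value, −0.66 as the median and 0.90 in SKMES1 as the highest, with standard errors of 0.55 to 0.76 outside EBC1. Of 10 lines, 9 were below 0, and EBC1, NCIH1563 and NCIH1975 passed the authors' adjusted p. The mean was −0.96 ± 0.99 (SD, n = 10 lines; limma adjusted p = 0.0292), and the call was lost without EBC1, without NCIH1975, without NCIH522 and without SW900.

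**Figure D2:**
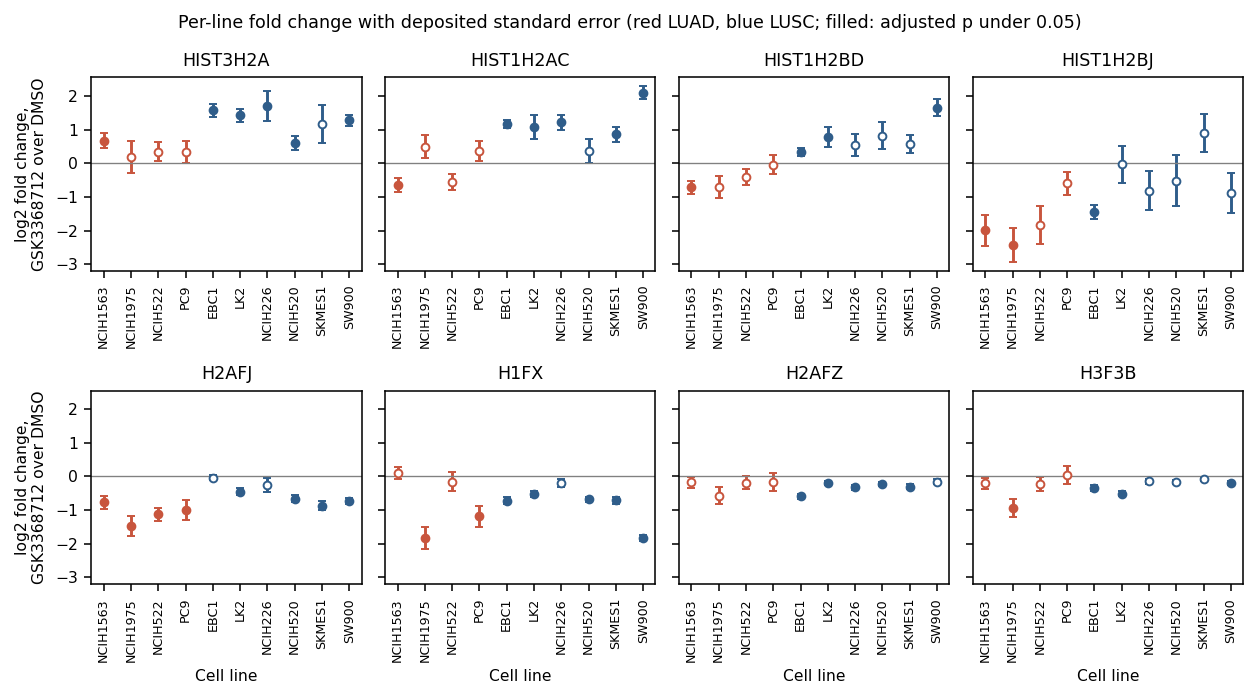
Log2 fold change of 8 histone genes in each line (points; GSK3368712 over DMSO), with the authors' deposited standard error as bars, LUAD lines in red to the left and LUSC lines in blue to the right. HIST3H2A lies above 0 in all 10 lines and H2AFJ and H2AFZ below 0 in all 10, while HIST1H2BD is below 0 in the 4 LUAD lines and above 0 in the 6 LUSC lines.

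None of the remaining variants passed the main test across lines. H3F3B averaged −0.28 ± 0.28 (SD, n = 10 lines; limma adjusted p = 0.0500128, just above the threshold), and 4 lines passed the authors' adjusted p, each downward; it passed the test across lines under several alternatives, among them genes with at least 7 lines and a random-effects model. H3F3A averaged −0.16 ± 0.10 (SD, n = 10 lines; limma adjusted p = 0.0675) and was below 0 in every line, and it passed in the random-effects model. H2AFX, whose protein is phosphorylated at DNA breaks, averaged 0.26 ± 0.57 (SD, n = 10 lines; limma adjusted p = 0.282): the authors' deposited table gave 1.35 in NCIH1563 and −0.92 in NCIH1975, both past its adjusted p. The macroH2A genes, associated with silent chromatin, averaged −0.12 ± 0.30 for H2AFY (SD, n = 10 lines; limma adjusted p = 0.435) and 0.08 ± 0.17 for H2AFY2 (SD, n = 8 lines; limma adjusted p = 0.519). Over all lines, 5 of the 98 variant values were called higher and 35 lower at an adjusted p under 0.05 in the authors' deposited table. This compares with 13.7% and 13.8% of the values of all genes.

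In the replication-dependent genes the direction of the measured fold changes differed between lines. Values of different genes in the same line are not independent, so the counts below only describe them. Over all lines, 42 of their 237 values were called higher and 23 lower at an adjusted p under 0.05 in the authors' deposited table. This compares with 13.7% and 13.8% of the values of all genes. Of the 100 values in LUAD lines 1 was called higher and 20 lower, against 7.92% and 7.9% of all genes' values there. Of the 137 values in LUSC lines 41 were called higher and 3 lower, against 17.2% and 17.4%. The median fold change of the replication-dependent members listed was −0.93 in NCIH1563, −0.36 in NCIH1975, −0.55 in NCIH522 and 0.11 in PC9. In the LUSC lines that median was between 0.18 in SKMES1 and 1.11 in SW900, and the median over all genes of a line was between −0.01 and 0.04. The median of the 10 variants was below 0 in every line, between −0.92 in NCIH1975 and −0.10 in SW900. For the 9 replication-dependent genes listed in all 10 lines, which are the same genes in each, the medians were −0.93, −0.35, −0.55 and −0.04 in these LUAD lines and lay between 0.33 and 1.26 in the LUSC lines.

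**Figure D3:**
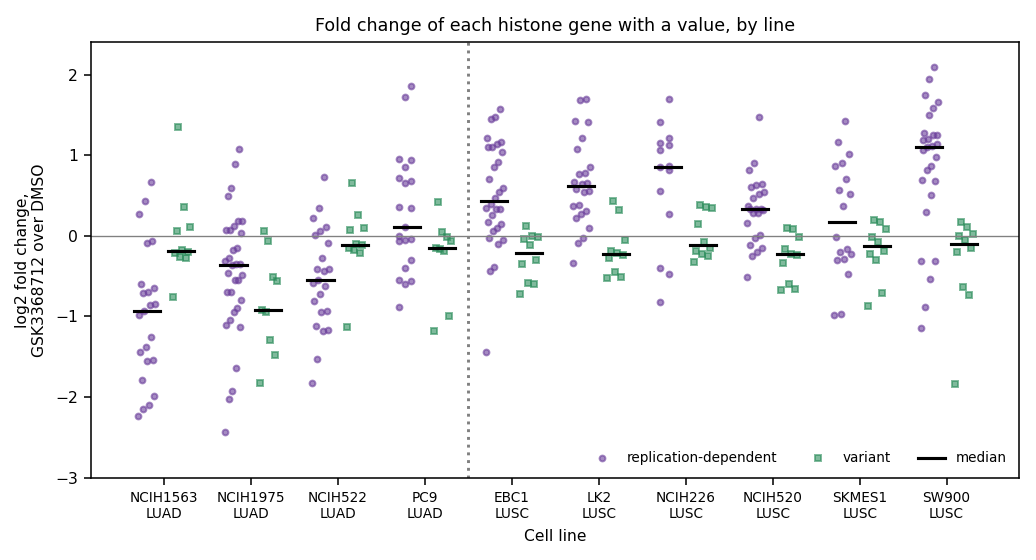
Log2 fold change (GSK3368712 over DMSO) of every histone gene with a value, by line, with replication-dependent genes as circles, variants as squares and medians as black bars. Circles lie mostly below 0 in NCIH1563 (median −0.93) and mostly above 0 in SW900 (median 1.11), while the median of the squares is below 0 in each line.

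Line by line, the LUAD calls were nearly all downward. NCIH1563 had 2 members higher and 15 lower of 33 in the authors' deposited table, against 23.3% of all its genes higher and 24.8% lower. Its member with the largest fall was HIST1H4H, an H4 gene, at −2.23 (standard error 0.249; authors' adjusted p = 2e-17), and the highest was H2AFX at 1.35. NCIH1975 had 0 members higher and 9 lower of 43, against 4.33% and 3.58% of all genes, with HIST1H2BJ lowest at −2.43. By an unadjusted p computed from the test statistic of the authors' deposited table, 1 member of NCIH1975 was higher and 15 lower, against 10.3% and 8.73% of all genes. NCIH522 had 0 higher and 3 lower of 34, against 0.912% and 0.75% of all genes, and 2 and 12 at an unadjusted p of 0.05, against 4.85% and 4.78%. Its lowest called member was HIST1H4H at −1.17 (standard error 0.333; authors' adjusted p = 0.0335). PC9 had 0 higher and 2 lower of 30, against 2.56% and 1.91% of all genes, and 4 and 3 at an unadjusted p of 0.05, against 11.2% and 7.34%; the 2 called were the variants H1FX and H2AFJ. The members' share called lower was 45.5% in NCIH1563, 20.9% in NCIH1975, 8.82% in NCIH522 and 6.67% in PC9, above the gene-wide share in each. Of these lower calls, 1 in NCIH1563, 5 in NCIH1975, 1 in NCIH522 and 2 in PC9 were variants. In PC9 no replication-dependent member was called.

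Among the LUSC lines, SW900 had 12 members higher and 5 lower of 40, against 18.0% and 17.7% of all genes. HIST1H2AC, an H2A gene of the main cluster, was highest there at 2.10 (standard error 0.188; authors' adjusted p = 1.01e-26). EBC1 had 11 higher and 7 lower of 40, against 23.0% and 23.4%, with HIST3H2A highest at 1.57 and HIST1H2BJ lowest at −1.44. LK2 had 10 higher and 7 lower of 37, against 19.9% and 19.5%, with HIST2H3C highest at 1.70, a gene whose 31-base stretches are 100% shared with other genes. All 7 lower members of LK2 were variants. NCIH226 had 9 higher and 1 lower of 24, against 15.4% and 15.8%, and H2AFZ was the one called lower. NCIH520 had 1 higher and 6 lower of 34, against 11.4% and 12.3%: HIST3H2A rose and the 6 that fell were variants. SKMES1 had 2 higher and 3 lower of 28, against 15.8% and 15.6%, with HIST1H2AC and HIST1H1C higher. The members' share called higher was 37.5% in NCIH226, 30.0% in SW900, 27.5% in EBC1 and 27.0% in LK2, above the gene-wide share in each, and below it in NCIH520 and SKMES1. Leaving out the 25% of genes with the lowest counts, which removes many members, reduced the higher calls to 6 in SW900, 7 in EBC1, 3 in LK2 and 2 in NCIH226.

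**Figure D4:**
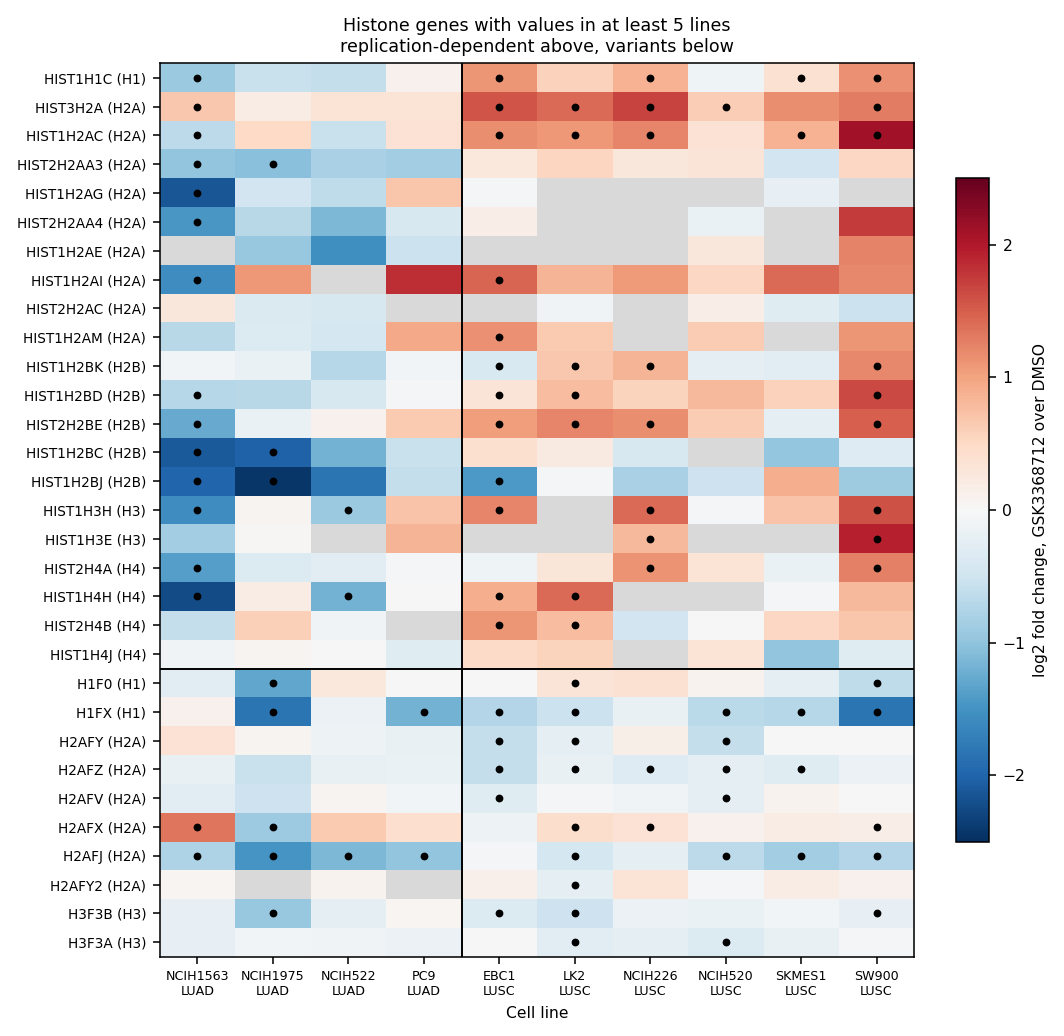
Log2 fold change (GSK3368712 over DMSO; colour) of the 31 histone genes with values in at least 5 lines (rows, replication-dependent above the line and variants below it) in the LUAD lines, left, and the LUSC lines, right. Dots mark an authors' adjusted p under 0.05 and grey marks no value; the upper left holds mostly falls and the upper right mostly rises, whereas H2AFJ and H1FX are low on both sides.

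The difference between lines was tested with Cochran's Q, using the deposited standard errors. It was past an adjusted p of 0.05 for 27 of the 31 members, against 64.4% of all genes tested. Those standard errors come from 2 libraries per arm and may hold only technical spread. A large Q therefore need not mean that the lines respond differently. H3F3A, HIST1H2AM, HIST1H4J and HIST2H2AC did not pass. HIST1H4H, with −2.23 in NCIH1563 and 1.41 in LK2 in the authors' deposited table, had a Q of 160 (adjusted p = 1.35e-29), and H1FX had the largest Q of the members, 200.1.

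With the LUSC lines taken alone, 10 of the 32 members with values in at least 3 of them rose across lines, against 9.64% of the 14257 genes tested, and 3 fell, against 10.3%. Those that rose were all replication-dependent: HIST1H1C, the H2A genes HIST1H2AC, HIST1H2AI, HIST1H2AJ, HIST1H2AM and HIST3H2A, the H2B genes HIST1H2BD and HIST2H2BE, the H3 gene HIST1H3H and the H4 gene HIST4H4. Some of these rises rest on weak values. HIST1H2AJ had values in 3 LUSC lines, with mean normalized counts of 15.8 to 37.4, and passed the authors' adjusted p in none. HIST1H2AI, HIST1H2AM and HIST4H4 passed it in EBC1 alone among the LUSC lines. HIST1H2AJ shares 86.0% of its 31-base stretches with other genes, HIST1H2AI 63.8% and HIST1H2AM 87.1%. The 3 that fell were H1FX, H2AFJ and H2AFZ, which also fell over all 10 lines. HIST1H2AC averaged 1.13 ± 0.57 (SD, n = 6 LUSC lines; limma adjusted p = 0.0124), HIST2H2BE 0.89 ± 0.61 (SD, n = 6; limma adjusted p = 0.0289) and HIST1H3H 0.98 ± 0.65 (SD, n = 5; limma adjusted p = 0.0369). With the LUAD lines alone, limma called 0 of the 36 members with values in at least 2 of them, against 0.0146% of 13668 genes, and 8 members had an unadjusted p under 0.05, against 11.6% of genes. All 8 were lower: H2AFJ, HIST2H2AA3, HIST1H2BJ, HIST1H2BC, HIST2H2AA4, HIST1H2AE, HIST1H2BN and HIST1H2BD.

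The difference between subtypes was then tested directly, as the LUAD mean minus the LUSC mean by limma over the 11620 genes with at least 3 lines of each. No member of the 27 tested passed the adjusted p of 0.05, nor did any gene, 0.0% in all. At an unadjusted p of 0.05 there were 14 members, against 5.91% of all genes, and all 14 were lower in LUAD. Of the 14, 13 were among the 18 replication-dependent members tested, and H2AFJ was the one among 9 variants. HIST2H2AA3 averaged −0.93 in LUAD and 0.24 in LUSC lines, a difference of −1.17 (SE 0.193; limma unadjusted p = 6.72e-05, adjusted p = 0.293). HIST1H2BD averaged −0.47 in LUAD and 0.78 in LUSC lines, a difference of −1.25 (SE 0.246; limma unadjusted p = 0.000303, adjusted p = 0.341). HIST3H2A, called higher across the 10 lines, averaged 0.39 in LUAD and 1.29 in LUSC lines. Its difference was −0.90 (SE 0.206, limma unadjusted p = 0.000967, adjusted p = 0.479). HIST1H1C averaged −0.49 in LUAD and 0.66 in LUSC lines, a difference of −1.14 (SE 0.270; limma adjusted p = 0.51).

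The subtypes overlapped for most of these genes. HIST1H1C was 0.11 in the LUAD line PC9, above −0.12 in the LUSC line NCIH520, in the authors' deposited table. HIST1H2AC was −0.65 in NCIH1563, 0.49 in NCIH1975, −0.55 in NCIH522 and 0.36 in PC9, against a lowest value of 0.37, a median of 1.12 and a highest value of 2.10 in the LUSC lines of the authors' deposited table. HIST1H2BD (chr6:26158146-26171349, plus strand, overlapping the pseudogene LARP1P1 on the same strand) was −0.71, −0.70, −0.41 and −0.04 in NCIH1563, NCIH1975, NCIH522 and PC9, against a lowest value of 0.33, a median of 0.68 and a highest value of 1.66 in the LUSC lines of the authors' deposited table. Its subtypes did not overlap, nor did those of HIST2H2AA3 (LUAD up to −0.81, LUSC from −0.48) and its near-identical partner HIST2H2AA4 (LUAD up to −0.40, LUSC from −0.16). These are 3 of the 27 members tested, against 2.29% of all genes tested. Other measures differed between the subtypes too: the median standard error over all genes was 0.216 to 0.342 in LUAD and 0.108 to 0.130 in LUSC lines. Mean normalized counts added up to 91375623 to 100671496 in LUAD lines and 57647556 to 108557964 in LUSC lines. Their part in the result was not tested.

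**Figure D5:**
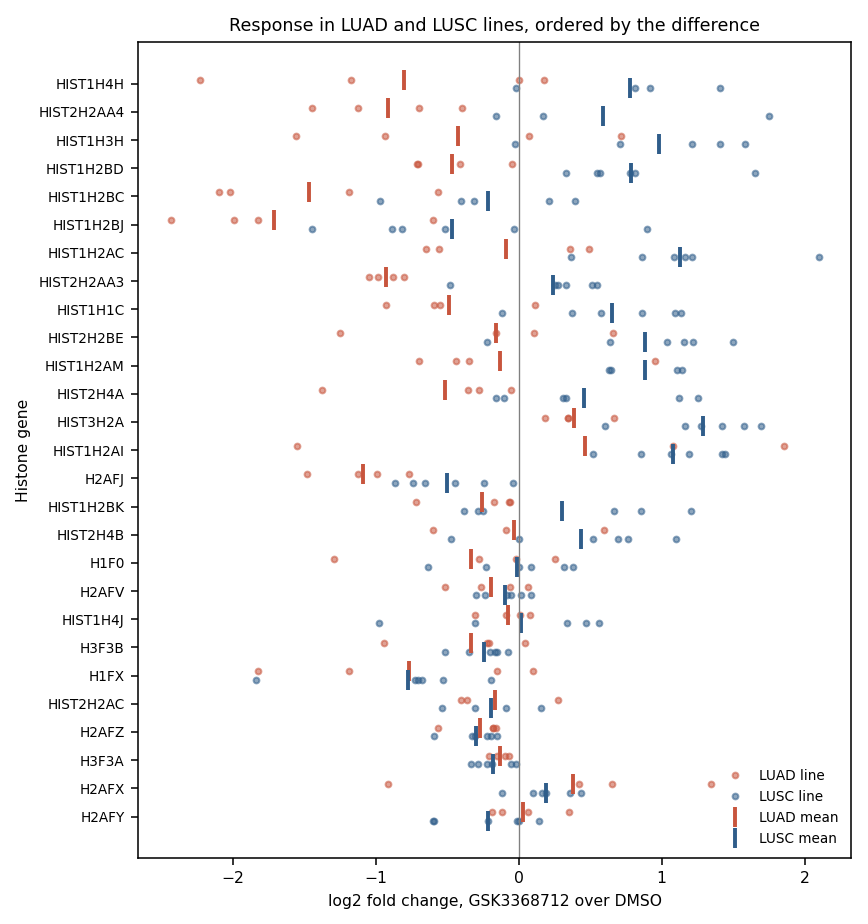
Log2 fold change (x; GSK3368712 over DMSO) of the 27 histone genes tested between subtypes (rows, ordered by the difference), with each LUAD line as a red point, each LUSC line as a blue point and subtype means as bars. For 21 of the 27 the LUAD mean is the lower one, and for HIST1H2BD, HIST2H2AA3 and HIST2H2AA4 the points of the subtypes do not overlap.

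Neighbouring genes on opposite strands had means of opposite sign in some pairs, none of them past the test for both genes. HIST1H2AC averaged 0.64 ± 0.83 (SD, n = 10 lines; limma adjusted p = 0.0713), while HIST1H2BC, transcribed from the other side of the same window, averaged −0.77 ± 0.88 (SD, n = 9 lines; limma adjusted p = 0.0554). In the authors' deposited table HIST1H2BC was −2.09 in NCIH1563, −2.02 in NCIH1975, −1.18 in NCIH522 and −0.56 in PC9, and lay between −0.97 in SKMES1 and 0.40 in EBC1 in 5 LUSC lines. HIST1H2AG and HIST1H2BJ start 292 bases apart and averaged −0.47 (n = 6 lines) and −0.96 (n = 10 lines). HIST2H2AC and HIST2H2BE start 323 bases apart and averaged −0.18 (n = 7 lines) and 0.47 (n = 10 lines). HIST3H2BB, the partner of HIST3H2A at 234 bases, was listed in 1 line, NCIH522, at 0.22 in the authors' deposited table.

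Among the replication-dependent genes, those with an annotated transcript that is spliced or runs on past the stem-loop gave most of the calls, although the medians lay close together. In LUAD lines these 20 genes had 1 of 53 values called higher and 14 lower, with a median of −0.55, and the other 26 genes had 0 of 47 higher and 6 lower, with a median of −0.41, beside 7.92% and 7.9% of all genes' values. In LUSC lines the 20 genes had 32 of 75 values called higher and 2 lower, with a median of 0.64, and the other 26 had 9 of 62 higher and 1 lower, with a median of 0.51, beside 17.2% and 17.4% of all genes' values. Counts differed between these groups too: apart from HIST1H3J at 17.2, all of the 20 had mean normalized counts of at least 132.9. Most of the 26 had 98.3 or less, though HIST1H1C had 3081. The part of counts in these calls was not tested. When the genes that share at least 50% of their 31-base stretches were left out, the median of the rest was −0.56 in LUAD and 0.60 in LUSC lines. By histone, the medians in LUAD and LUSC lines were −0.42 and 0.75 for H2A, −0.71 and 0.32 for H2B, −0.54 and 0.81 for H3, and −0.09 and 0.54 for H4. HIST1H1C, the one H1 gene, had a median of −0.57 in LUAD and 0.72 in LUSC lines.

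The other replication-dependent genes named for their level had mixed values. HIST1H2BK rose in LK2, NCIH226 and SW900, where the authors' deposited table gave 0.67, 0.86 and 1.20, and fell in EBC1 at −0.38. HIST2H4A averaged 0.07 ± 0.76 (SD, n = 10 lines) and its near-identical partner HIST2H4B 0.28 ± 0.59 (SD, n = 9 lines), and neither passed the test across lines. HIST1H3E, an H3 gene listed in 5 lines, was given by the authors' deposited table as 1.95 in SW900 and 0.82 in NCIH226, both past its adjusted p. HIST1H3G was listed in NCIH1975 alone, at −1.93 in the authors' deposited table (standard error 0.422; authors' adjusted p = 0.000281). The 25 replication-dependent genes listed in fewer than 5 lines gave 56 values in the authors' deposited table, of which 4 were called higher and 3 lower, below the 13.7% and 13.8% of the values of all genes.

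The factors that make, process and deposit histones moved in both directions. Of 18 genes for histone transcription and message processing, 3 rose and 4 fell across lines, with a median of −0.07, where 9.31% of all genes tested rose and 10.2% fell. MIF4GD, an SLBP partner in histone translation, averaged −0.77 ± 0.22 (SD, n = 10 lines; limma adjusted p = 0.000147), and LSM10, part of the U7 particle that guides 3′ cleavage, −0.45 ± 0.26 (SD, n = 10 lines; limma adjusted p = 0.00446). HINFP, a transcription factor of H4 genes, averaged 0.37 ± 0.27 (SD, n = 10 lines; limma adjusted p = 0.0131). The exonuclease ERI1, which trims the histone 3′ end, averaged −0.35 ± 0.26 (SD, n = 10 lines; limma adjusted p = 0.0159). SLBP itself averaged −0.04 (limma adjusted p = 0.759) and NPAT, the coactivator of histone loci, 0.07 (limma adjusted p = 0.552). The target PRMT1 averaged 0.10 ± 0.23 (SD, n = 10 lines; limma adjusted p = 0.436), and since the compound acts on the protein this is no check of the treatment.

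Of 31 histone chaperone genes, 2 rose and 5 fell across lines, with a median of −0.01, near the 9.31% and 10.2% of all genes. ASF1B, a chaperone of newly made H3 and H4, averaged −0.67 ± 0.37 and was below 0 in 10 of 10 lines (SD, n = 10 lines; limma adjusted p = 0.00221). RBBP4 averaged −0.31 and CHAF1B −0.33, both subunits of the assembly factor CAF-1 (limma adjusted p = 0.0215 and 0.0248). HIRA, which deposits H3.3 outside replication, averaged 0.24 ± 0.15 and was above 0 in 10 of 10 lines (SD, n = 10 lines; limma adjusted p = 0.0232). CENPA, the centromeric H3 variant, was the one of 10 further variants that could be tested and averaged −0.44 ± 0.32 (SD, n = 10 lines; limma adjusted p = 0.0101). Of 21 genes of poly(A) polymerases and the RNA exosome, 3 rose and 4 fell, against 9.31% and 10.2% of all genes, among them PAPOLG at 0.26 and the exosome genes EXOSC9 at −0.36, EXOSC3 at −0.31 and EXOSC8 at −0.28.

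Genes of S phase, when replication-dependent histone genes are transcribed, had medians below 0 in 8 of 10 lines. Of 24 such genes, 0 rose and 4 fell across lines by limma, against 9.31% and 10.2% of all genes: PRIM1 averaged −0.54, CCNE2 −0.48, RRM2 −0.47 and PCNA −0.29. The median of the 24 was −0.06 in NCIH1563, −0.53 in NCIH1975, 0.02 in NCIH522 and 0.31 in PC9, and between −0.74 in EBC1 and −0.14 in LK2 in the LUSC lines. In all 6 LUSC lines the S phase median was below 0 and the median of the listed replication-dependent histone genes above 0. In SKMES1 that histone median was 0.18, with 9 of 18 members above 0. Among the LUAD lines both medians were below 0 in NCIH1563 and NCIH1975 and above 0 in PC9. They differed in sign in NCIH522. The part of S phase in the histone values was not tested.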

How the data were processed

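RNA sequencing was done on 40 libraries of 10 cell lines. The labels' protocols name a miRNeasy Mini kit for RNA, a stranded TruSeq kit for mRNA libraries and paired reads of 151 bases. Per the submitters' processing notes, FastQC, Salmon 0.12.0, DESeq2 (version not given in the sources used here) and GRCh38 were used, and per the labels genes with an FPKM of 1 or lower were left out of a comparison. The authors' deposited table holds, for each gene and line, a log2 fold change with its standard error, an adjusted p-value, a test statistic (a score), a mean normalized count (a signal averaged over the 4 libraries) and a mark of significance (another code). Nothing in the table is per library, so no replicate spread and no counting interval could be given.

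Members and gene lists were chosen with earlier results of these data known. Genes were called per line at a deposited adjusted p under 0.05, whatever the deposited mark of significance. Across lines, limma 3.58.1 (R 4.3.3) tested the mean of 1 fold change per line in genes with at least 5 lines, and the LUAD minus LUSC difference in genes with at least 3 lines of each. Cochran's Q used the deposited standard errors. All p-values were adjusted by Benjamini-Hochberg over all genes tested, and the tests were first tested on simulated data. Any member could be named, with full values for those past the test across lines, the 10 variants and the 3 highest replication-dependent genes per histone. Of the other lists up to 4 genes past the test, with PRMT1, SLBP, NPAT and CENPA, could be named. GENCODE 29 gave positions and transcripts, and RefSeq the promoters. Python 3.11.15 with pandas 2.3.3, scipy 1.17.1 and matplotlib 3.10.9 was used for the rest. Alternatives covered the gene filter, centring, the variance model, a random-effects model, each subtype alone and leaving out each line.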

Additional observations from a re-analysis of the deposited data

Results flagged for a closer look

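HIST1H2AI, an H2A gene, had 1 line far from the others: its log2 fold change in the authors' deposited table was −1.55 in NCIH1563, against 0.52 to 1.85 in the other 8 lines with a value. Such a gap was looked for in 31 members, and chance alone marks about 1 in 20. Without NCIH1563 its mean was 1.18 (SE 0.130; limma adjusted p = 0.000415), and with it the mean was 0.88 (SE 0.283; limma adjusted p = 0.0506). This line was picked for its distant value, so the smaller p without it is no separate evidence of a rise. Among the other 8 lines only EBC1 passed the authors' adjusted p. HIST1H2AI shares 63.8% of its 31-base stretches with other genes.

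HIST1H2BD was below 0 in all 4 LUAD lines and above 0 in all 6 LUSC lines. The LUAD mean was −0.47 and the LUSC mean 0.78, a difference of −1.25 that did not pass the adjusted limma test (adjusted p = 0.341).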

How the results depend on the processing

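No paired analysis was possible because the authors' deposited table gives 1 fold change per line and no values per library, and for the same reason leaving out a replicate was not run. The members called across lines, 1 higher and 4 lower, became 0 higher in the top 75% of genes by expression, a filter that removes HIST3H2A, 2 higher and 6 lower both in genes with at least 7 lines, where HIST1H2AI joined the higher and H3F3B and HIST1H2BC the lower, and in the random-effects model, where H2AFX joined the higher and H3F3A and H3F3B the lower. They were 10 higher and 3 lower in LUSC lines alone, and 0 and 0 in LUAD lines alone. Leaving out each line gave 1 to 4 higher and 3 to 5 lower: without NCIH1563 HIST1H2AC, HIST1H2AI and HIST2H2BE joined HIST3H2A, and without NCIH522 HIST1H2AC did. H2AFJ, H2AFZ and H1FX were called lower in every such fit and HIST3H2A higher. Members differing between subtypes numbered 0 to 1 (HIST2H2AA3 without SKMES1), and those differing between lines 23 to 28. Per line, the top 75% of genes gave 7 higher in EBC1, 3 in LK2, 2 in NCIH226, 0 in NCIH520, 1 in SKMES1 and 6 in SW900, and 7 lower in NCIH1563. NCIH226 had 2 lower under that filter and 2 when centred on its median. Some means turned sign. In LUAD lines alone they were 0.029 for H2AFY, −0.49 for HIST1H1C, −0.088 for HIST1H2AC, −0.26 for HIST1H2BK, −0.47 for HIST1H2BD, −0.43 for HIST1H3H, −0.52 for HIST2H4A and −0.030 for HIST2H4B. In LUSC lines alone they were 0.24 for HIST2H2AA3 and 0.78 for HIST1H4H. Leaving out lines gave −0.047 to 0.167 for HIST1H2BK, −0.062 to 0.230 for HIST2H4A and −0.22 to 0.30 for HIST1H4H. The cause was not tested. Of the other settings of the 22 means followed, 335 kept direction and side of the threshold. With 4 LUAD lines and their larger standard errors, differences between subtypes could be missed, and the low counts of many replication-dependent genes limit them further.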
